A study of Homo sapiens with 8 samples.

Results

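SOX4, ID1, ID2, ID3, SMAD7 and SMAD3 are 6 genes whose transcription responds to ligands of the transforming growth factor beta (TGF-beta) family or that carry its signal. They were followed by gene symbol in MDA-MB-231, a line of human breast cancer cells of the triple-negative kind. Rows for 5 of the 6 were found among 15041 genes listed, and ID3 was not analysed here. The genes were put together after SOX4 had been seen among the genes lower in irradiated wild-type cells of these data. Their irradiation response in wild type is therefore described without a test. Single cells were picked by mouth pipette and carried through a modified Smart-seq2 protocol that ended in 3′ mRNA libraries. Wild type (WT) and ATM knockdown cells were each sequenced untreated and 4 h after 5 Gy of ionizing radiation, with 2 libraries in each of these 4 groups and 8 libraries in all. All groups were grown in DMEM with fetal bovine serum and penicillin-streptomycin, and the labels name neither the knockdown agent nor a clone. They also do not tell whether libraries of 1 group stem from different cultures, so a p-value rests on a spread that may be only technical. ATM is the kinase that opens the response to DNA double-strand breaks.

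Ligands of the TGF-beta and bone morphogenetic protein (BMP) branches bind paired receptor kinases that phosphorylate receptor SMAD proteins, which join SMAD4 and act on genes in the nucleus. SMAD3 is a receptor SMAD of the TGF-beta branch, and SMAD7 is an inhibitory SMAD that is itself induced by the signal and acts against the receptors. ID1, ID2 and ID3 are small proteins without a DNA-binding region that hold E proteins in inactive pairs, and ID1 is a classical BMP target. SOX4 is a high-mobility-group transcription factor that is induced by TGF-beta in breast epithelial cells.

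The windows around the annotated starts of SOX4, ID1 and ID2 are shown because these are the members whose levels differed most between groups. Each runs from 250 bases before to 50 bases after the start, on the plus strand of GRCh38.p14 as given by RefSeq, and a window was found for all 6 genes. SOX4 lies at chr6:21593501-21593800, ID1 at chr20:31605039-31605338 and ID2 at chr2:8681806-8682105. Capitals mark CCAAT (the CCAAT box), CAGAC (the core of a SMAD-binding element) and TATAAA (the TATA box), each searched on both strands.
SOX4: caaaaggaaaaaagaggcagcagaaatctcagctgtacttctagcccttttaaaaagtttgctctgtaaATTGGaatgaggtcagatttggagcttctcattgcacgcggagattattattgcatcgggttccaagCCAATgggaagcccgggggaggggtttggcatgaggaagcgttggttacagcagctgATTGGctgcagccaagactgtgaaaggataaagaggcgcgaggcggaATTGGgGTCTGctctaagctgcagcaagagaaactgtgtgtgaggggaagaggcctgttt
ID1: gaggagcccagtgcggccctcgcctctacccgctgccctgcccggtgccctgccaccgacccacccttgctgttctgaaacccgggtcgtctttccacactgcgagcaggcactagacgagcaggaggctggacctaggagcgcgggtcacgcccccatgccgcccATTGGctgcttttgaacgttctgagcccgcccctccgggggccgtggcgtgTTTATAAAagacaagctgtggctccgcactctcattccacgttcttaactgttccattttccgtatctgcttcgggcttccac
ID2: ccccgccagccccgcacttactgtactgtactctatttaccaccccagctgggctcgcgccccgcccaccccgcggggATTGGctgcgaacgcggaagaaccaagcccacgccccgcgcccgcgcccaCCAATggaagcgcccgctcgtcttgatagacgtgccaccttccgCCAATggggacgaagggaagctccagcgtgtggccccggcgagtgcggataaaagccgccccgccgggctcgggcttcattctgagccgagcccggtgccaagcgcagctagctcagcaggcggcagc
The SOX4 window held 4 CCAAT matches, beginning 181, 114, 57 and 10 bases before the start, and 1 CAGAC match that began 4 bases before it. The ID2 window held 3 CCAAT matches, at 172, 122 and 78 bases before the start, with no match to the other motifs. The ID1 window held 1 CCAAT match at 84 bases before the start and a run in which 2 TATAAA matches on opposite strands overlap, beginning 33 and 31 bases before it. No other matches overlapped. Of 35116 windows of the same length, 34.6% held a CCAAT match, 45.3% a CAGAC match and 11.5% a TATAAA match, and 3.26% held 3 or more CCAAT matches. Such matches describe letters and not bound sites.

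The kept cells numbered 363 of 378, no cell column was shared between libraries, and the libraries held 9321268 to 24256471 counts. Levels are given as counts scaled to 1000000 per library over its kept cells (CPM), and since the libraries read the 3′ end they are compared between libraries and not between genes. The targeted gene, ATM, was at 57.9 and 31.1 CPM in untreated WT, 28.0 and 33.2 CPM in irradiated WT, 13.8 and 33.0 CPM in the libraries labelled untreated ATM knockdown, and 13.0 and 14.0 CPM in those labelled irradiated ATM knockdown. Replicate 2 labelled untreated ATM knockdown was thus level with WT. The members' tested values from the main edgeR fit that rest on it are also given without it. All WT libraries shared a title suffix that all knockdown libraries lacked, so genotype and any handling that went with it cannot be told apart. The cell line's mesenchymal markers were present (VIM at 1828 CPM or more in every library) apart from SPARC, which was at or near 0. The luminal markers PGR and CDH1 were at 2.02 CPM or less, while 3 others were present in every library: GATA3 at 35.7 to 54.8 CPM, EPCAM at 15.5 to 61.3 CPM and KRT19 at 289 to 491 CPM. The 6 leukocyte markers summed to at most 1.80 CPM. The 6 fibroblast markers summed to 34.3 to 84.2 CPM in WT and to 3.85 to 13.1 CPM in the knockdown libraries, with COL1A2 at 59.7, 66.1, 26.0 and 29.7 CPM in WT and 0 to 3.40 CPM in knockdown; their part in the genotype differences was not tested.

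SOX4 (ENSG00000124766.6, chromosome 6, 21592768 to 21598619, plus strand, GRCh38) was high in untreated WT and low everywhere else. It was at 199.8 and 355.8 CPM in untreated WT, 16.5 and 19.6 CPM in irradiated WT, 72.3 and 34.3 CPM in untreated knockdown, and 11.6 and 36.8 CPM in irradiated knockdown. The 2 untreated WT libraries stood above the other 6. By group mean the order was untreated WT (278 ± 110 CPM, SD, n = 2 in each group), untreated knockdown (53.3 ± 26.9 CPM), irradiated knockdown (24.2 ± 17.8 CPM) and irradiated WT (18.04 ± 2.15 CPM). Irradiated knockdown overlapped its neighbours on both sides, so the lower part of this order does not go beyond the spread. The gene overlaps the antisense gene AL512380.2, and reads of the pair cannot be told apart if counting ignored the strand.

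**Figure D1:**
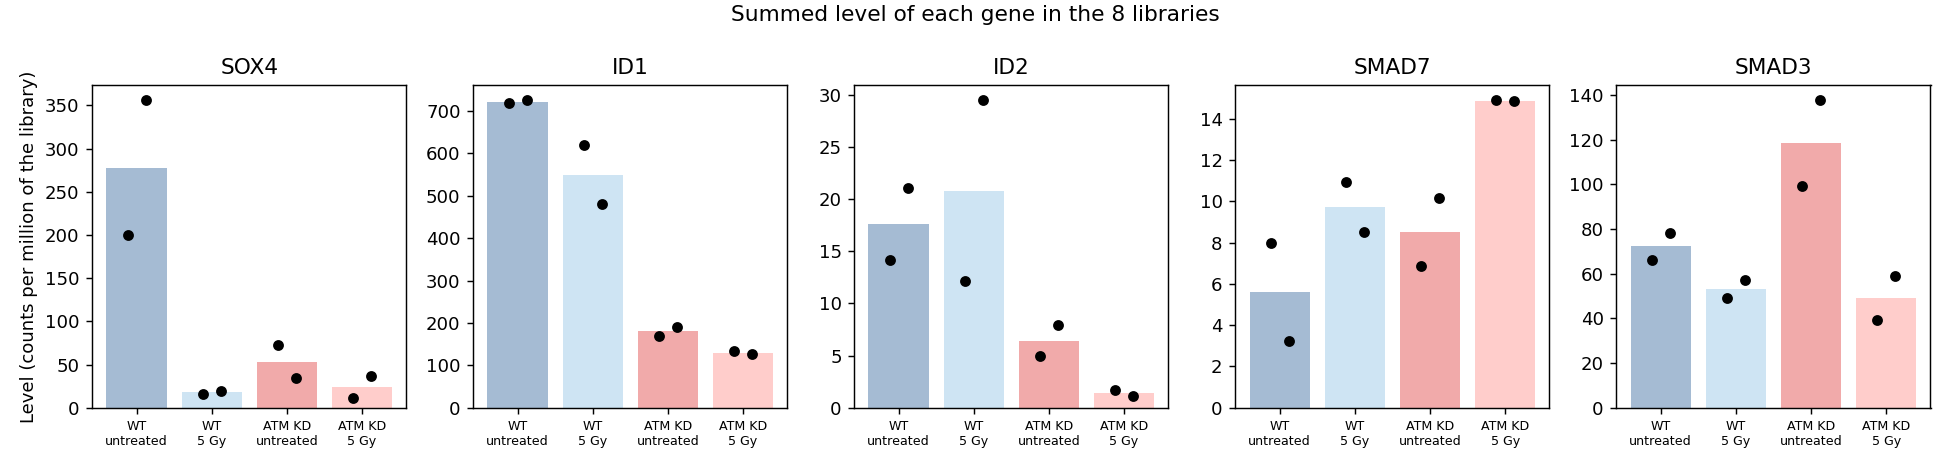
Summed level of SOX4, ID1, ID2, SMAD7 and SMAD3 in CPM (vertical axis, from 0, its own scale for each gene). Bars are means of the 2 libraries of a group and points are the libraries; SOX4 is highest in untreated WT, ID1 is at 480 CPM or more in the 4 WT libraries and at 191 CPM or less in the 4 knockdown libraries.

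In WT, the ratio of irradiated to untreated SOX4 was 0.0650, and edgeR's log2 change was -3.92 (SE 0.489). SOX4 was 1 of the 5 measured members past the adjusted threshold of 0.05 in this contrast, in which 1.65% of 12456 genes passed and 0.739% passed as lower; since the gene was chosen from it, nothing is read from that count. In knockdown cells the log2 change was -1.13 (SE 0.443) and did not pass (adjusted p = 0.455, edgeR's quasi-likelihood test with Benjamini-Hochberg adjustment). Without replicate 2 of the irradiated knockdown it was -2.21 and passed (adjusted p = 0.00797), as it did without the filter on low counts (-1.14, adjusted p = 0.00026) and without cells above 2 times the median total (-2.54, adjusted p = 0.00629). It was -1.59 without replicate 2 labelled untreated ATM knockdown (adjusted p = 0.0695). The response in knockdown minus that in WT was 2.79 on the log2 scale (SE 0.632), a value that holds the WT contrast and was not tested. That difference was 0.80 without cells above 2 times the median total, 1.71 without replicate 2 of the irradiated knockdown, 2.34 without replicate 2 labelled untreated ATM knockdown, and at most 3.45 with any other library left out. Between genotypes, SOX4 differed by -2.44 (SE 0.454) without irradiation, and by 0.36 (SE 0.448) after it; these share the WT libraries and are given as values only. Without replicate 2 labelled untreated ATM knockdown the untreated difference was -1.99.

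SOX4 was found in a larger share of cells in untreated WT than in the other groups. For this, cells were thinned to 69000 counts each, which 330 cells reached. SOX4 had a count in 65.1% (95% exact Clopper-Pearson interval 49.1% to 79.0%) and 69.6% (54.2% to 82.3%) of untreated WT cells. After irradiation it had a count in 15.4% (5.86% to 30.5%) and 17.4% (7.82% to 31.4%) of WT cells. In knockdown the shares were 6.06% (0.743% to 20.2%) and 10.0% (2.79% to 23.7%) without irradiation and 14.0% (5.30% to 27.9%) and 7.50% (1.57% to 20.4%) with it. At 20000 counts per cell the shares were 48.9% and 48.9% in untreated WT and 6.82% to 12.8% in the other 6 libraries. The intervals cover the sampling of cells within a library only. The untreated WT intervals lie above those of all 6 other libraries, while those 6 overlap one another. SOX4 was chosen from the WT irradiation contrast, which holds the untreated WT libraries, so nothing is read from that separation. Without thinning the shares were 89.6% and 87.5% in untreated WT, 16.7% and 41.7% in irradiated WT, 22.0% and 18.2% in untreated knockdown, and 25.6% and 14.0% in irradiated knockdown.

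A few cells carried most of the SOX4 counts. The cell with most SOX4 held 41.4% and 55.0% of its library's SOX4 counts in untreated WT and 58.4% and 87.3% in untreated knockdown. It held 39.0% and 49.1% in irradiated WT and 50% and 65.9% in irradiated knockdown. Without that cell SOX4 stood at 123 and 171 CPM in untreated WT, 10.3 and 10.4 CPM in irradiated WT, 30.7 and 4.49 CPM in untreated knockdown, and 5.83 and 14.2 CPM in irradiated knockdown. Untreated WT thus remained the highest group without its top cells, whereas replicate 2 labelled untreated ATM knockdown was then below all irradiated libraries. The mean of single-cell CPM, in which every cell weighs the same, was 167 and 224 in untreated WT, 16.6 and 19.1 in irradiated WT, 194 and 29.5 in untreated knockdown, and 39.7 and 20.9 in irradiated knockdown. On that measure replicate 1 of the untreated knockdown lay between the untreated WT libraries. Leaving out the largest cells (those with over 2 times the median count of their library) gave a SOX4 difference between untreated genotypes of -0.53 in place of -2.44.

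**Figure D2:**
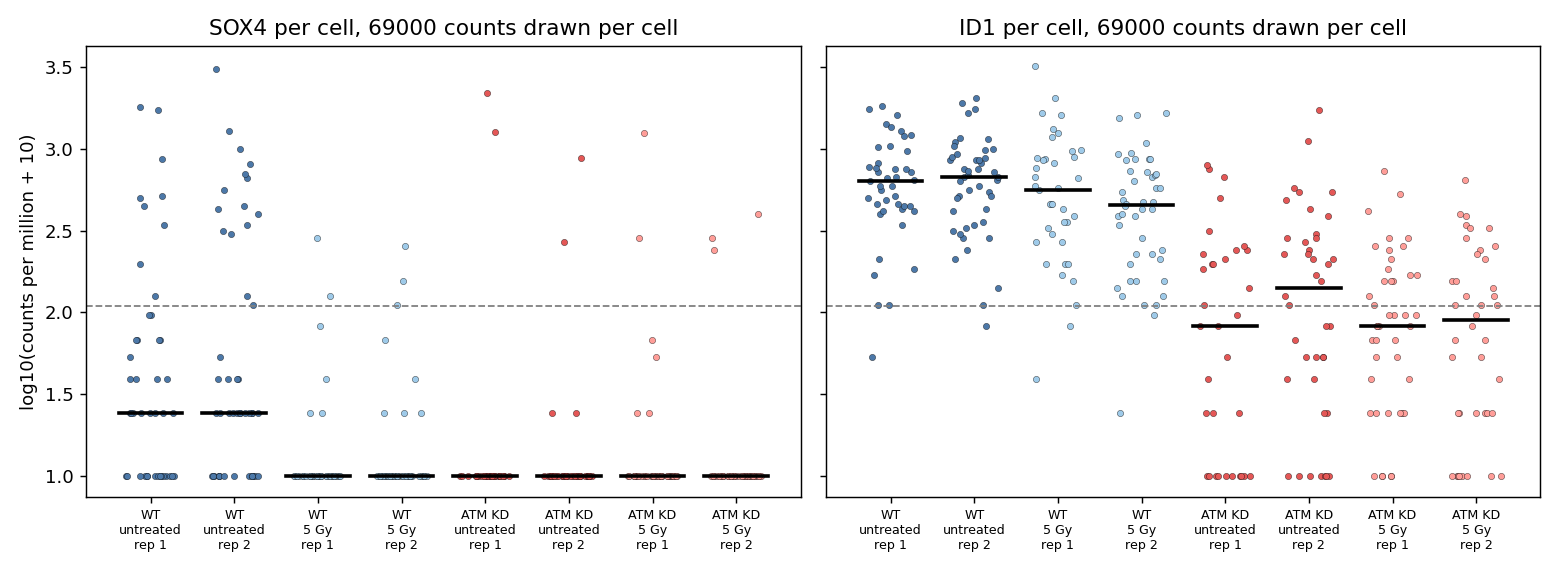
SOX4 (left) and ID1 (right) in single cells thinned to 69000 counts, as log10(CPM + 10), by library. Points are cells, black bars are medians, and the dashed line marks 100 CPM; SOX4 lies off the floor in 65.1% and 69.6% of untreated WT cells and in at most 17.4% of cells of another library, and ID1 medians are 442 to 667 CPM in WT and 72.5 to 130 CPM in knockdown.

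Cells at or above 100 CPM of SOX4, a limit chosen after the values were seen, numbered 9 and 15 in the untreated WT libraries (20.9% and 32.6% of thinned cells). There were 2 and 3 such cells in irradiated WT, 2 and 2 in untreated knockdown, and 2 and 3 in irradiated knockdown, or 4.65% to 7.50% of cells. The 9 knockdown cells had SOX4 from 232 to 2188 CPM, against 101 to 3058 CPM in the 29 WT cells. In the 9 knockdown cells ID1 ran from 14.5 to 319 CPM with a median of 232 CPM, against 87.0 CPM over all 156 knockdown cells. In the 29 WT cells its median was 739 CPM, against 565 CPM over all 174 WT cells. Most of the 29 were untreated, whereas the 174 pool both treatments and hold the 29. Within untreated WT the ID1 medians were 667 and 739 CPM in such cells, against 601 and 580 CPM in the others. Only in irradiated WT replicate 1 was the ID1 median of such cells below that of the others (457 against 551 CPM). S100A2, a calcium-binding protein gene whose level differed between the genotypes much like ID1, had a median of 28.99 CPM in the 9 knockdown cells, 43.5 CPM over all knockdown cells and 500.0 CPM over all WT cells. The highest S100A2 among the 9 was 116 CPM, while the 29 WT cells ran from 72.5 to 3522 CPM. BNIP3L, which also followed ID1 over the libraries, separated these cells less clearly. It ran from 0 to 319 CPM in the 9 knockdown cells and from 28.99 to 1188 CPM in the 29 WT cells. Its medians there were 72.5 and 217 CPM, against 72.5 CPM over all knockdown cells and 203 CPM over all WT cells.

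ID1 (ENSG00000125968.8, chromosome 20, 31605283 to 31606515, plus strand) separated the genotypes, with or without irradiation. It was at 719 and 725 CPM in untreated WT, 620 and 480 CPM in irradiated WT, 170 and 191 CPM in untreated knockdown, and 133 and 126 CPM in irradiated knockdown. The group means were 722 ± 4.10, 550 ± 99.3, 181 ± 15.2 and 130 ± 4.67 CPM (SD, n = 2 each). No 2 groups overlapped, and the step from irradiated WT to untreated knockdown was far wider than the spread in either.

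The knockdown-to-WT ratio of ID1 was 0.250 without irradiation and 0.236 with it. The log2 differences were -2.06 (SE 0.160, adjusted p = 2.09e-06, edgeR's quasi-likelihood test) and -2.16 (SE 0.161, adjusted p = 3.38e-06), and both passed. Without replicate 2 labelled untreated ATM knockdown the untreated difference was -2.13 (adjusted p = 3.27e-07). Every knockdown library was below every WT library, and 5.11% of genes passed as lower in knockdown without irradiation and 2.92% with it. The mitochondrial share of counts moved with genotype as well, from 10.1% to 10.6% in WT to 10.9% to 13.8% in knockdown, and its part in the difference was not tested.

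The ID1 difference was seen across most cells. After thinning, every WT cell had an ID1 count (lower 95% exact bound 91.0% in the smallest library), against 69.7% and 82.5% of untreated knockdown cells and 88.4% and 80.0% of irradiated ones. The median cell held 623 and 667 CPM in untreated WT, 551 and 442 CPM in irradiated WT, 72.5 and 130 CPM in untreated knockdown, and 72.5 and 79.7 CPM in irradiated knockdown. Cells at or above 100 CPM made up 94.9% to 97.8% of each WT library and 39.5% to 55.0% of each knockdown library. The top cell held 8.14% to 21.4% of a library's ID1, and without it the genotype differences were -2.14 and -2.21.

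ID1 values were smaller after irradiation in both genotypes, by less than between genotypes. The log2 change was -0.37 (SE 0.154) in WT, and -0.47 (SE 0.155) in knockdown, where it did not pass (adjusted p = 0.350). Without cells above 2 times the median total the knockdown change was -0.78 and passed (adjusted p = 0.0323). It was -0.41 without replicate 2 labelled untreated ATM knockdown (adjusted p = 0.555). The 2 responses differed by -0.10 (SE 0.218), less than its SE.

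ID2 (ENSG00000115738.9, chromosome 2, 8678845 to 8684453, plus strand) was scarce and was lowest in irradiated knockdown cells. It was at 14.1 and 21.0 CPM in untreated WT, 12.1 and 29.5 CPM in irradiated WT, 4.97 and 7.93 CPM in untreated knockdown, and 1.67 and 1.08 CPM in irradiated knockdown. The WT groups overlapped, and both knockdown groups lay below them and apart from each other. Behind the irradiated knockdown values stood only 33 and 21 counts, and 1 cell held 90.9% of the 33 and all of the 21. The gene overlaps its antisense partner ID2-AS1, from which it cannot be told apart if counting ignored the strand.

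After irradiation ID2 was lower in knockdown than in WT by -3.99 on the log2 scale (SE 0.626, adjusted p = 0.0019, edgeR's quasi-likelihood test). It remained past the threshold in all 18 alternatives run for it, with log2 differences of -7.56 to -3.22. The value of -7.56 came without the top cell of each library, which left ID2 at 0.157 and 0 CPM in irradiated knockdown. Its size therefore rests on almost no counts. Without irradiation the difference was -1.51 (SE 0.559) and did not pass (adjusted p = 0.106, edgeR's quasi-likelihood test). On the mean CPM per cell it was 0.40, since replicate 1 of the untreated knockdown averaged 48.8 CPM per cell there. Irradiation of the knockdown gave -2.22 (SE 0.593), which did not pass in edgeR (adjusted p = 0.186) but did in DESeq2's Wald test (adjusted p = 0.0325) and in limma on the mean CPM per cell (adjusted p = 0.0404). Without replicate 2 labelled untreated ATM knockdown these were -1.86 (adjusted p = 0.113) between untreated genotypes and -1.87 (adjusted p = 0.281) on irradiation. In WT the change was 0.26 (SE 0.544), and the responses differed by -2.48 (SE 0.800; -2.13 without replicate 2 labelled untreated ATM knockdown), which was not tested. Thinned cells with an ID2 count made up 20.9% and 21.7% of untreated WT, 12.8% and 32.6% of irradiated WT, 12.1% and 5.00% of untreated knockdown, and 2.33% and 2.50% of irradiated knockdown cells, the last from 1 cell in each library.

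SMAD3 (ENSG00000166949.15, chromosome 15, 67063763 to 67195195, plus strand) was highest in untreated knockdown cells. It was at 66.3 and 78.4 CPM in untreated WT, 49.3 and 57.0 CPM in irradiated WT, 99.5 and 138 CPM in untreated knockdown, and 39.2 and 59.1 CPM in irradiated knockdown. The untreated knockdown libraries stood above the other 6, and the 2 irradiated groups overlapped. Irradiation of the knockdown gave a log2 change of -1.26 (SE 0.261), and the ratio of group means was 0.415. This missed the threshold in edgeR (adjusted p = 0.0679) and passed it in DESeq2's Wald test (adjusted p = 0.0015) and in limma on the mean CPM per cell (adjusted p = 0.0293).

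The call on SMAD3 was on the same side in 7 of 19 alternatives and past the threshold in the rest. It passed without any 1 of the 4 WT libraries, without replicate 1 of the untreated knockdown and without replicate 2 of the irradiated knockdown (adjusted p = 0.00704 to 0.0255). Without replicate 2 labelled untreated ATM knockdown it was -1.03 (adjusted p = 0.171), and without replicate 1 of the irradiated knockdown -0.99 (adjusted p = 0.406). In WT the change was -0.42 (SE 0.258). The difference between untreated genotypes was 0.65 (SE 0.257, adjusted p = 0.129), which passed on the mean CPM per cell (0.92, adjusted p = 0.0453) and without cells above 2 times the median total (1.09, adjusted p = 0.0286), and that between irradiated genotypes was -0.18 (SE 0.259, adjusted p = 0.780). The untreated difference was 0.42 (adjusted p = 0.494) without replicate 2 labelled untreated ATM knockdown. The median thinned cell held 72.5 and 101 CPM in untreated knockdown and 14.5 and 43.5 CPM in irradiated knockdown, where 14.5 CPM is the level of 1 count, against 43.5 to 58.0 CPM in the WT libraries. The antisense genes AC087482.1 and AC012568.1 overlap SMAD3.

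SMAD7 (ENSG00000101665.8 in the tables, chromosome 18, 48919853 to 48952052, minus strand) was scarce, and no contrast passed. It was at 8.00 and 3.25 CPM in untreated WT, 10.9 and 8.49 CPM in irradiated WT, 6.87 and 10.1 CPM in untreated knockdown, and 14.9 and 14.9 CPM in irradiated knockdown. Irradiated knockdown was the highest group and overlapped no other, and untreated knockdown overlapped both WT groups. The log2 change on irradiation was 0.81 (SE 0.585) in WT and 0.82 (SE 0.581, adjusted p = 0.722) in knockdown, and the genotype differences were 0.54 without irradiation (SE 0.582, adjusted p = 0.619) and 0.54 with it (SE 0.580, adjusted p = 0.680). Without replicate 2 labelled untreated ATM knockdown the knockdown response was 1.10 (adjusted p = 0.750) and the untreated difference 0.25 (adjusted p = 0.894). SMAD7 had a count in 37.2% and 37.5% of thinned irradiated knockdown cells, with exact 95% intervals of 23.0% to 53.3% and 22.7% to 54.2%. In the other 6 libraries the shares were 4.35% to 23.1%. Their intervals overlapped those of irradiated knockdown, apart from untreated WT replicate 2 (0.531% to 14.8%). They reached 39.3% in irradiated WT replicate 1 and 35.6% in replicate 2 labelled untreated ATM knockdown. At 20000 counts per cell the irradiated knockdown shares were 16.3% and 23.3%, against 4.26% to 13.6% in the others. Without thinning they were 51.2% and 37.2%, and untreated WT replicate 1, at 39.6%, lay between them.

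**Figure D3:**
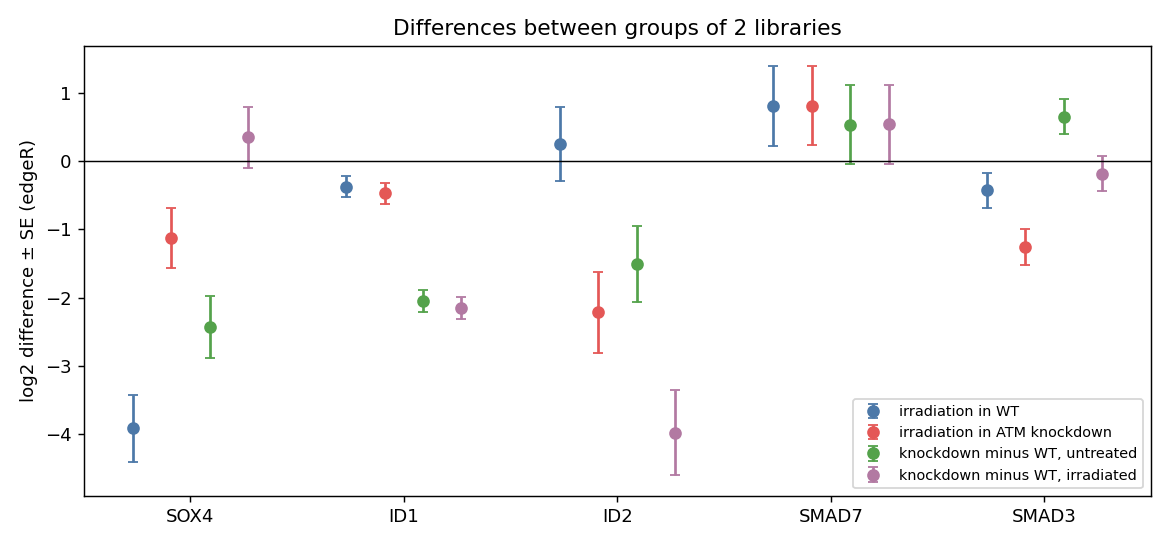
Log2 difference with its SE (bars) from edgeR for the 5 measured genes in 4 contrasts of 2 libraries against 2. Both genotype differences of ID1 lie near -2, ID2 between irradiated genotypes is at -3.99, and SOX4 on irradiation is at -3.92 in WT and -1.13 in knockdown.

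Counted over the 5 measured members, irradiation of knockdown cells called 0 in edgeR, where 0.225% of 12456 genes passed. Of the 5, 4 had an unadjusted p under 0.05, against 8.86% of all genes. ID2 and SMAD3 were called both by DESeq2's Wald test, with 1.46% of genes passing, and by limma on the mean CPM per cell, with 0.979%. These counts all include replicate 2 labelled untreated ATM knockdown, and DESeq2 and limma were not run without it. Between untreated genotypes, leaving aside SOX4, edgeR called ID1, with 9.94% of genes passing, and limma on the mean CPM per cell called ID1 and SMAD3, with 12.1% passing. Between irradiated genotypes ID1 and ID2 were called, with 5.1% of genes passing. The 2 libraries of one group lay wholly apart from those of the other for 4 of 5 members in WT irradiation (43.9% of genes did so), 4 in knockdown irradiation (39.5%), 4 between untreated genotypes (51.6%) and 3 between irradiated genotypes (52.2%). SOX4 is among the members apart in both contrasts with untreated WT, and nothing is read from it there. The contrasts share groups, so these counts are not independent of one another. G1/S genes moved with irradiation too. Their 15 summed to 699 and 777 CPM in untreated WT, 1181 and 2046 CPM in irradiated WT, and 1022 to 1308 CPM in knockdown. The 14 G2/M genes summed to 5013 and 2270 CPM in untreated WT and 4531 and 2181 CPM in irradiated WT. In WT they thus differed more between replicates than with irradiation. They summed to 2938 and 3392 CPM in untreated knockdown and 1841 and 1561 CPM in irradiated knockdown. The part of either list in the members' values was not tested.

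The rest of the pathway was read from 7 lists of 78 genes, chosen with earlier results of these data known, of which 63 could be tested. Between untreated genotypes 11 were lower and 1 was higher in knockdown, 19.0% of the 63, with a median log2 difference of -0.44, against 9.94% and -0.01 over all genes. Between irradiated genotypes 5 were lower and 1 higher, 9.52%, with a median of -0.18, against 5.1% and a median near 0 over all genes. Irradiation called 1 gene in WT, 1.59% against 1.65% of all genes and so at the background. In knockdown it called 0 (0.225% of all genes passed), with 12 of the 63 at an unadjusted p under 0.05 against 8.86% of all genes. The difference between the responses called 0, with 7 at an unadjusted p under 0.05. Over all genes 0.185% passed there and 9.5% had an unadjusted p under 0.05.

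**Figure D4:**
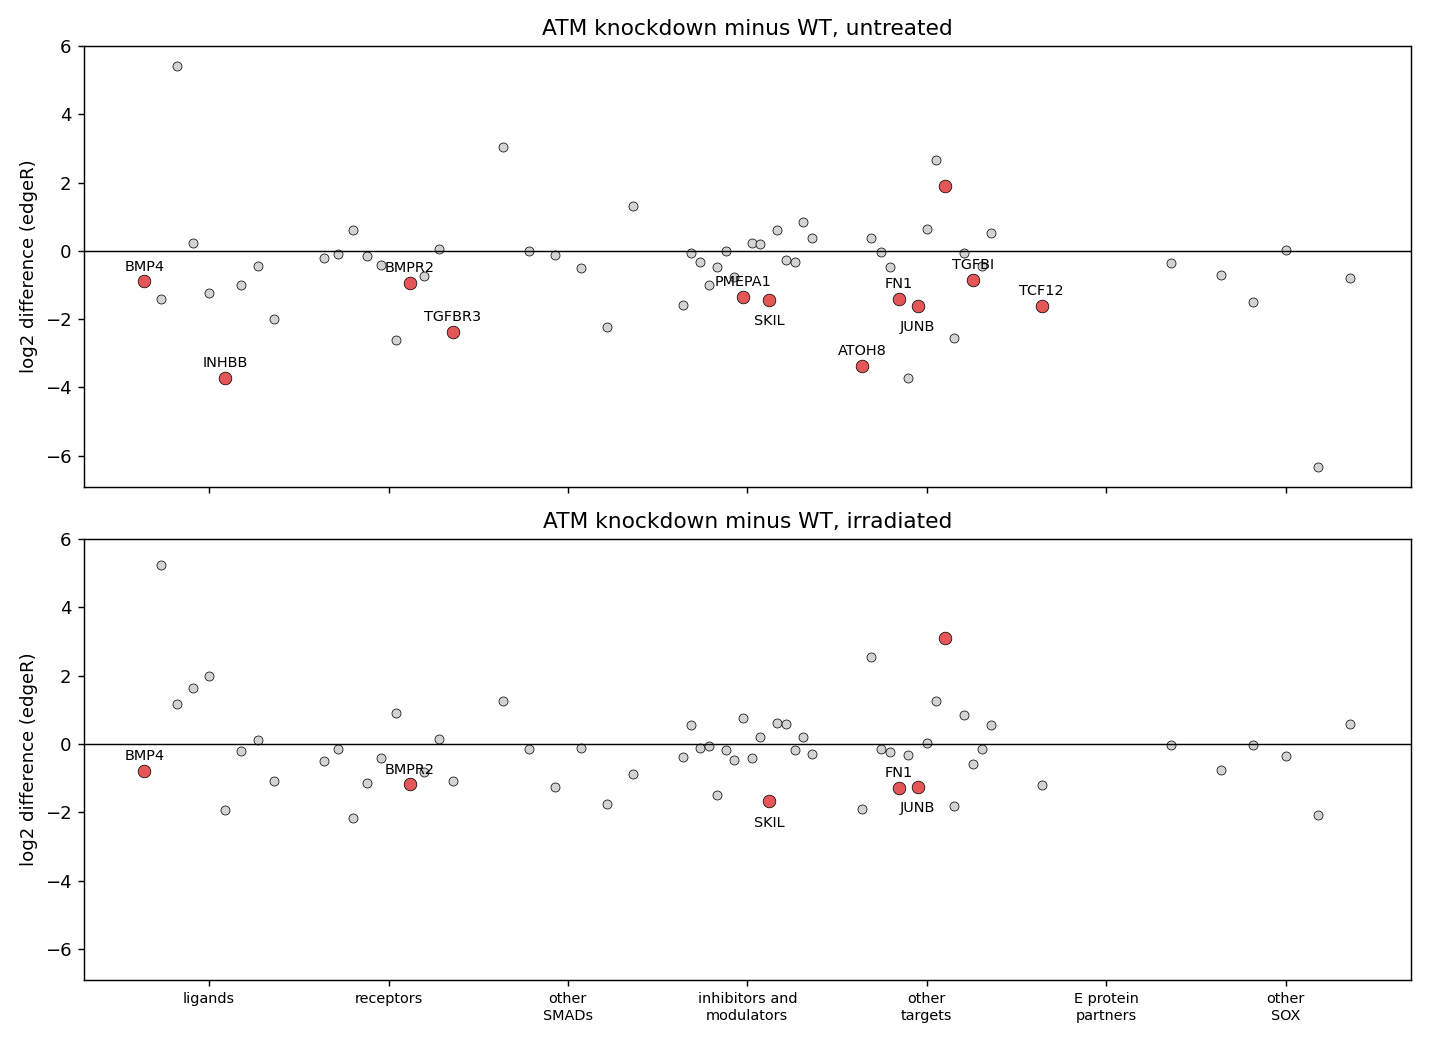
Log2 difference of knockdown minus WT (edgeR) for the 63 tested genes of the 7 pathway lists, untreated above and irradiated below. Each point is a gene, and red points, most of them named, passed the adjusted threshold of 0.05; of these, 11 of 12 lie below 0 in the upper panel and 5 of 6 in the lower.

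Among ligands, 2 of the 9 tested passed, both lower in untreated knockdown. BMP4, the BMP ligand with the most counts, was at 689 and 622 CPM in untreated WT, 585 and 514 CPM in irradiated WT, 341 and 392 CPM in untreated knockdown, and 319 and 346 CPM in irradiated knockdown. Its WT and knockdown libraries did not overlap, with log2 differences of -0.89 (adjusted p = 0.00102) and -0.80 (adjusted p = 0.00447). INHBB, an activin subunit, differed by -3.71 without irradiation (adjusted p = 0.0116), from 23.3 and 16.0 CPM to 0.654 and 2.43 CPM. It was -4.93 without replicate 2 labelled untreated ATM knockdown and lost its call without cells above 2 times the median total (-2.05, adjusted p = 0.424) and in limma on the mean CPM per cell (-2.24, adjusted p = 0.0624). In irradiated cells INHBB was at 4.29 and 11.2 CPM in WT and 1.11 and 3.15 CPM in knockdown, and did not pass. TGFB2, the next ligand by level, was at 48.3 to 74.8 CPM and passed in no contrast.

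Among receptors, 2 of the 10 tested passed. BMPR2, the type II BMP receptor, was at 134, 109, 103 and 125 CPM in the WT libraries and 43.7 to 68.2 CPM in knockdown. Its differences were -0.93 (adjusted p = 0.0161) and -1.19 (adjusted p = 0.00632). TGFBR3, the co-receptor betaglycan, was at 81.3 and 50.9 CPM in untreated WT and 9.88 and 16.6 CPM in untreated knockdown, a difference of -2.37 (adjusted p = 0.00295). In irradiated cells TGFBR3 was at 21.1 and 20.4 CPM in WT and 6.11 and 14.2 CPM in knockdown, and did not pass. TGFBR2, the most counted receptor, was at 79.6 to 120 CPM and passed in no contrast. None of the 6 other SMADs passed, among them SMAD2 and SMAD5, the most counted.

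Of 16 inhibitors and modulators tested, 2 were lower in untreated knockdown. SKIL, a co-repressor of SMADs that the signal induces, differed by -1.43 (adjusted p = 0.0231) without irradiation and by -1.68 (adjusted p = 0.0173) with it. PMEPA1, a TGF-beta target that restrains the receptor SMADs, differed by -1.36 without irradiation (adjusted p = 0.0354) and by 0.77 with it (adjusted p = 0.295). SMURF2, a ubiquitin ligase that works with SMAD7, and FST, which binds activin, were the most counted of the list and passed in no contrast.

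Of the 15 other target genes tested, 4 were lower and 1 higher in knockdown without irradiation, and 2 lower and 1 higher with it. ATOH8, a BMP-responsive transcription factor, differed by -3.36 in untreated cells (adjusted p = 0.00238), from 33.2 and 26.7 CPM to 2.49 and 3.57 CPM. In irradiated cells ATOH8 was at 10.8 and 17.3 CPM in WT and 6.06 and 1.91 CPM in knockdown, and did not pass. FN1, which encodes fibronectin, differed by -1.41 (adjusted p = 0.00311) and -1.28 (adjusted p = 0.0104), and JUNB, an AP-1 transcription factor, by -1.62 (adjusted p = 0.000946) and -1.27 (adjusted p = 0.00944). TGFBI, a secreted matrix protein gene, differed by -0.86 in untreated cells (adjusted p = 0.0242). JUNB was also the gene called on irradiation of WT, at -1.22 (adjusted p = 0.0297). CYR61, the most counted of the list, passed in no contrast.

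Of the E proteins that ID proteins bind, TCF12 differed by -1.61 in untreated knockdown (adjusted p = 0.0211), and TCF3 was at 32.3 to 56.2 CPM and passed in no contrast. None of the 5 other SOX genes tested passed, SOX9 and SOX12 being the most counted. With each library left out in turn, the calls on BMP4 held in both genotype contrasts, as did those on INHBB, TGFBR3, ATOH8, FN1 and JUNB between untreated genotypes. Other settings took further calls. On the mean CPM per cell, limma did not call JUNB on irradiation of WT (adjusted p = 0.0989) or TCF12 between untreated genotypes (adjusted p = 0.0528). With only the groups compared in the fit, edgeR did not call JUNB on irradiation of WT (adjusted p = 0.0666) or, between untreated genotypes, PMEPA1 (adjusted p = 0.0985), TGFBI (adjusted p = 0.0766) and TCF12 (adjusted p = 0.0521). Without cells above 2 times the median total it did not call PMEPA1 (adjusted p = 0.0651) or TCF12 (adjusted p = 0.0785) there.

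The other calls named here were each lost without at least 1 library, as given here by the adjusted p of edgeR's quasi-likelihood test. JUNB in irradiated WT was lost without untreated WT replicate 1 (adjusted p = 0.0638), irradiated WT replicate 1 (0.0534) or irradiated WT replicate 2 (0.162). Between untreated genotypes, leaving out WT replicate 1 took the calls on BMPR2 (0.0703) and TCF12 (0.150), and leaving out WT replicate 2 those on PMEPA1 (0.105) and TGFBI (0.104). Leaving out knockdown replicate 1 took BMPR2 (0.0584), SKIL (0.109), TGFBI (0.160) and TCF12 (0.0742), and leaving out replicate 2 labelled untreated ATM knockdown took PMEPA1 (0.191). Between irradiated genotypes, leaving out WT replicate 1 took JUNB (0.0583), WT replicate 2 SKIL (0.0906), knockdown replicate 1 SKIL (0.145) and JUNB (0.0957), and knockdown replicate 2 BMPR2 (0.0910) and FN1 (0.0600).

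The genes most like SOX4 over the 8 libraries, by Pearson correlation of log2(CPM + 1) among the 5028 genes whose average log2 CPM reached 5, were CST4 (r = 0.992), FAM114A1 (0.965), WIPF2 (0.961), ZFAND5 (0.957) and YIPF5 (0.948). CST4, a secreted cysteine protease inhibitor, was at 169 and 457 CPM in untreated WT, 16.4 and 14.7 CPM in irradiated WT, 76.7 and 41.1 CPM in untreated knockdown, and 11.8 and 38.4 CPM in irradiated knockdown, which placed the libraries nearly in the order of SOX4. In the cells at or above 100 CPM of SOX4, CST4 ran from 0 to 4522 CPM in WT and from 0 to 4319 CPM in knockdown. Its median in those cells was 116 CPM in WT and 188 CPM in knockdown. Over all thinned cells it was 21.7 CPM in WT and 0 CPM in knockdown. These sets pool both treatments. Within untreated WT the CST4 medians were 130 and 275 CPM in such cells, against 43.5 and 43.5 CPM in the others. Within irradiated WT they were 50.7 and 14.5 CPM, against 0 and 0 CPM. CST4 was picked by its likeness to SOX4 in these same libraries, so these medians are a description. The genes most like ID1 were BNIP3L (0.985), S100A2 (0.985), CKB (0.984), BMP4 (0.984) and HCFC1R1 (0.983). S100A2 was at 479 to 851 CPM in the WT libraries and 46.8 to 126 CPM in knockdown. These coefficients share libraries and depth among all genes and are given as descriptions.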

How the data were processed

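The deposited tables hold whole-number counts per coding gene and cell, made by the authors with Trimmomatic 0.36, HISAT2 2.1.0 and HTSeq 0.9.1 on hg38, per the submitters' processing notes. Strand use in counting, and any use of molecular identifiers, are not given in the sources used here. Cells with at least 1000 genes and 5000 counts were kept, their counts were summed per library, and a gene without a row in a table was taken as 0. After filterByExpr and TMM scaling, tests used edgeR 4.0.16 (R 4.3.3) and its quasi-likelihood test, all 4 groups in 1 fit with 4 residual degrees of freedom, a common biological coefficient of variation of 0.458 and Benjamini-Hochberg adjustment over all 12456 genes tested at 0.05. The script was tested on simulated data. CPM values in the text are not TMM-scaled. Cell measures used 69000 counts drawn per cell with a fixed seed, and shares carry exact Clopper-Pearson intervals, which cover counting error only.

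The members and lists were chosen with earlier results of these data known. The irradiation contrast in WT chose SOX4, so members carry no p there, in the difference of responses, or, for SOX4, between genotypes. Besides the members, the text names pathway genes past the threshold in any contrast, the 2 most counted genes of each pathway list, and the 5 genes most like SOX4 and ID1. A gene that this rule takes is counted with its list but not reported here. The 100 CPM limit and the genes read in the cells it picks were chosen after their values were seen. Positions come from GENCODE 29. Alternatives were DESeq2 1.42.0 (size factors, Wald test), limma 3.58.1 on log2(mean CPM per cell + 1), no TMM, no filter or an average log2 CPM of at least 5, fits of only the groups compared, every barcode kept, a minimum of 3000 genes, the largest cells (over 2 times the library's median count) left out, 20000 counts or no thinning, each library left out, and, added after seeing the data, each member without its top cell. Python 3.11.15 with pandas 2.3.3 and scipy 1.17.1 was used.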

Additional observations from a re-analysis of the deposited data

How the results depend on the processing

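Both ID1 genotype calls held in all 19 alternatives and the ID2 call between irradiated genotypes in all 18. The SOX4 difference between untreated genotypes was -1.33 on the mean CPM per cell and -0.53 without cells above 2 times the median total, in place of -2.44. Signs turned for values that had not passed. ID2 on WT irradiation was -0.19 without the largest cells and -0.50 to 0.75 with each library left out. ID2 between untreated genotypes was 0.40 in limma on the mean CPM per cell. The SMAD7 difference of responses was near 0 in the main fit, at 0.004 (SE 0.868). It was -0.89 in limma, -0.87 without the largest cells and -0.77 to 0.50 with a library left out. There it took -0.18, -0.24 and -0.01 without irradiated WT replicate 2, untreated knockdown replicate 1 and irradiated knockdown replicate 2. With a library left out the ID1 difference of responses was -0.29 to 0.11, SMAD3 between irradiated genotypes -0.53 to 0.10, and SOX4 between irradiated genotypes -0.72 to 0.97, and SOX4 there was -0.11 without its top cells. ID2 on WT irradiation was -0.02 without untreated WT replicate 1.

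The number of genes called on WT irradiation was 205, and it was 534 without a filter, 322 at an average log2 CPM of at least 5, 569 in DESeq2's Wald test, 33 with the compared groups alone, 130 without the largest cells, and 89 to 376 with a library left out. On knockdown irradiation it was 28, and it was 236 without a filter, 178 in DESeq2's Wald test, 122 in limma, 65 with the compared groups alone, 68 without the largest cells and 44 to 142. For the difference of responses it was 23, with 195 without a filter, 45 at the higher average, 135 in DESeq2's Wald test and 31 to 128. Between untreated genotypes it was 1238, with 718 for the compared groups alone and 965 to 1390 with a library left out, and between irradiated genotypes 635, with 1044 without a filter, 1088 in DESeq2's Wald test and 308 to 980. Without TMM the higher and lower calls between untreated genotypes were 692 and 565 in place of 602 and 636, and between irradiated genotypes 334 and 309 in place of 271 and 364. The causes were not tested. Leaving out a library leaves 1 in its group, which is then assumed to vary like the others. No paired analysis was possible because the labels give no replicate number that groups share. Depth limits ID2 and SMAD7 most.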

Other observations

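Spearman's rho between SOX4 and ID1 over the thinned cells of a library was -0.210 to 0.304 in the 8 libraries, with a median of 0.204 and 7 of 8 above 0. For ID1 and ID2 the median was 0.120, with 6 of 8 above 0, and for ID2 and SMAD3 it was -0.176, with a lowest value of -0.360 and 1 of 8 above 0. The widest range was that of ID1 and SMAD3, from -0.409 to 0.208 with a median of 0.0332, the lowest values being -0.409 and -0.329 in the 2 irradiated WT libraries. Over the other 6 pairs of members the values lay within -0.299 and 0.305. The cells of a library share its depth and handling, and most cells had no count of SOX4 or ID2, so these values are descriptions only.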
